A study of Arabidopsis thaliana with 18 samples.

Results

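Roots of the brassinosteroid receptor mutant bri1-116 differ from wild type in many transcripts, and most of these differences shrink once an active form of the transcription factor BZR1 is added. The 72 genes described here are those whose level in bri1-116 changed little once active BZR1 was added. They were chosen from group means of CPM (counts divided by the library total and multiplied by 1000000). A gene entered when its mean reached 5 CPM in mock-treated Col-0 or in bri1-116, its difference between the 2 on the log2(CPM + 1) scale was at least 0.8, and the double mutant bri1-116;bzr1-1D lay within 0.3 of bri1-116. The files listed 33602 loci, of which 16060 reached that level and 819 passed the bri1-116 threshold. Of these 819 differences, the 72 members made up 8.79%. In bri1-116, 19 members were higher, called risers below, and 53 were lower, called fallers. The risers were 5.54% of the 343 genes higher in bri1-116, and the fallers 11.1% of the 476 lower ones. Of the remaining differences, 319 rises and 416 falls moved back toward wild type by 0.3 or more in the double mutant, and 12 moved further away.

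Total RNA came from the tip section of primary roots of 7-day-old Arabidopsis thaliana seedlings of the Col-0 background, with 2 libraries in each of 9 groups. At a read length of 101 bp, wild-type Col-0 received mock solution, 100 nM brassinolide (BL, a brassinosteroid), 5 µM indole-3-acetic acid (IAA, an auxin), or IAA and BL together, for 4 h, while bri1-116 and bri1-116;bzr1-1D were untreated. At 36 bp, the groups were untreated Col-0, untreated dwf4, and dwf4 given 100 nM BL for 4 h, with no mock group and no allele number for dwf4. In the choice of members, the mutant genotype and the absence of mock treatment therefore cannot be told apart, whereas dwf4 and its Col-0 control were both untreated. The labels do not say whether replicate libraries stem from separate plants or cultures, so p-values measure only the spread between these samples.

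Brassinosteroids are perceived at the cell surface by the receptor kinase BRI1. Active BRI1 leads to inactivation of the kinase BIN2, which otherwise phosphorylates BZR1 and keeps it from acting on genes in the nucleus. The bzr1-1D mutation makes BZR1 dominant and constitutively active, so it acts below the receptor. DWF4 encodes a hydroxylase of brassinosteroid synthesis, and dwf4 roots keep the receptor but lack much of the hormone.

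Gene counts ranged from 11225390 to 36431707 per library. For scale, 3 counts equalled 0.0823 to 0.267 CPM, a floor for reading a gene with none that covers counting error only. Transcript levels of the mutated genes did not check the labels, because the alleles need not change them. BRI1 read 114 and 129 CPM in mock-treated Col-0, 144 and 136 in bri1-116, and 102 and 111 in the double mutant. BZR1 lay between 25.7 and 37.3 CPM in all 18 libraries. DWF4 read 48.5 and 51.1 CPM in untreated Col-0 and 48.4 and 49.3 in dwf4. Summed markers of shoot-type photosynthesis (17 genes) were 127 to 128 CPM in mock-treated Col-0, 149 to 158 in bri1-116 and 318 to 337 in the double mutant. Their part in the values of the members was not tested.

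The values that chose the members are given as a description and support nothing. On the log2(CPM + 1) scale, the risers were 0.81 to 2.02 higher in bri1-116 (median 0.93), and the fallers differed by -2.29 to -0.80 (median -0.95). Over all 16060 loci at that level, 2.14% were higher by 0.8 or more and 2.96% lower. In the double mutant the risers lay -0.29 to 0.27 from bri1-116. The fallers lay -0.22 to 0.30 from it, and 41 of the 53 were above bri1-116. A move within 0.3 can undo part of a difference, so some members no longer reached 0.8 from mock in the double mutant. UPM1 went from -0.83 to -0.58 and AT5G48110 from 0.84 to 0.61. Others moved further from mock, as NPC4 did from -0.87 to -1.08. The choice used group means, which favour a separation of single libraries but do not force it. Both mock libraries stood apart from the 4 mutant libraries in all 72 members, and no share over all loci was computed. Close to the bri1-116 threshold, the riser MLS (0.812) was just inside and AT4G39675 (0.780) just outside, and the faller AT5G14130 (-0.800) was just inside and AT4G34760 (-0.793) just outside. Close to the double mutant threshold, the riser PRP1 (-0.289) and the faller HAK5 (0.299) were just inside, and AT2G25150 (-0.301) and LBD29 (0.304) just outside.

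**Figure D1:**
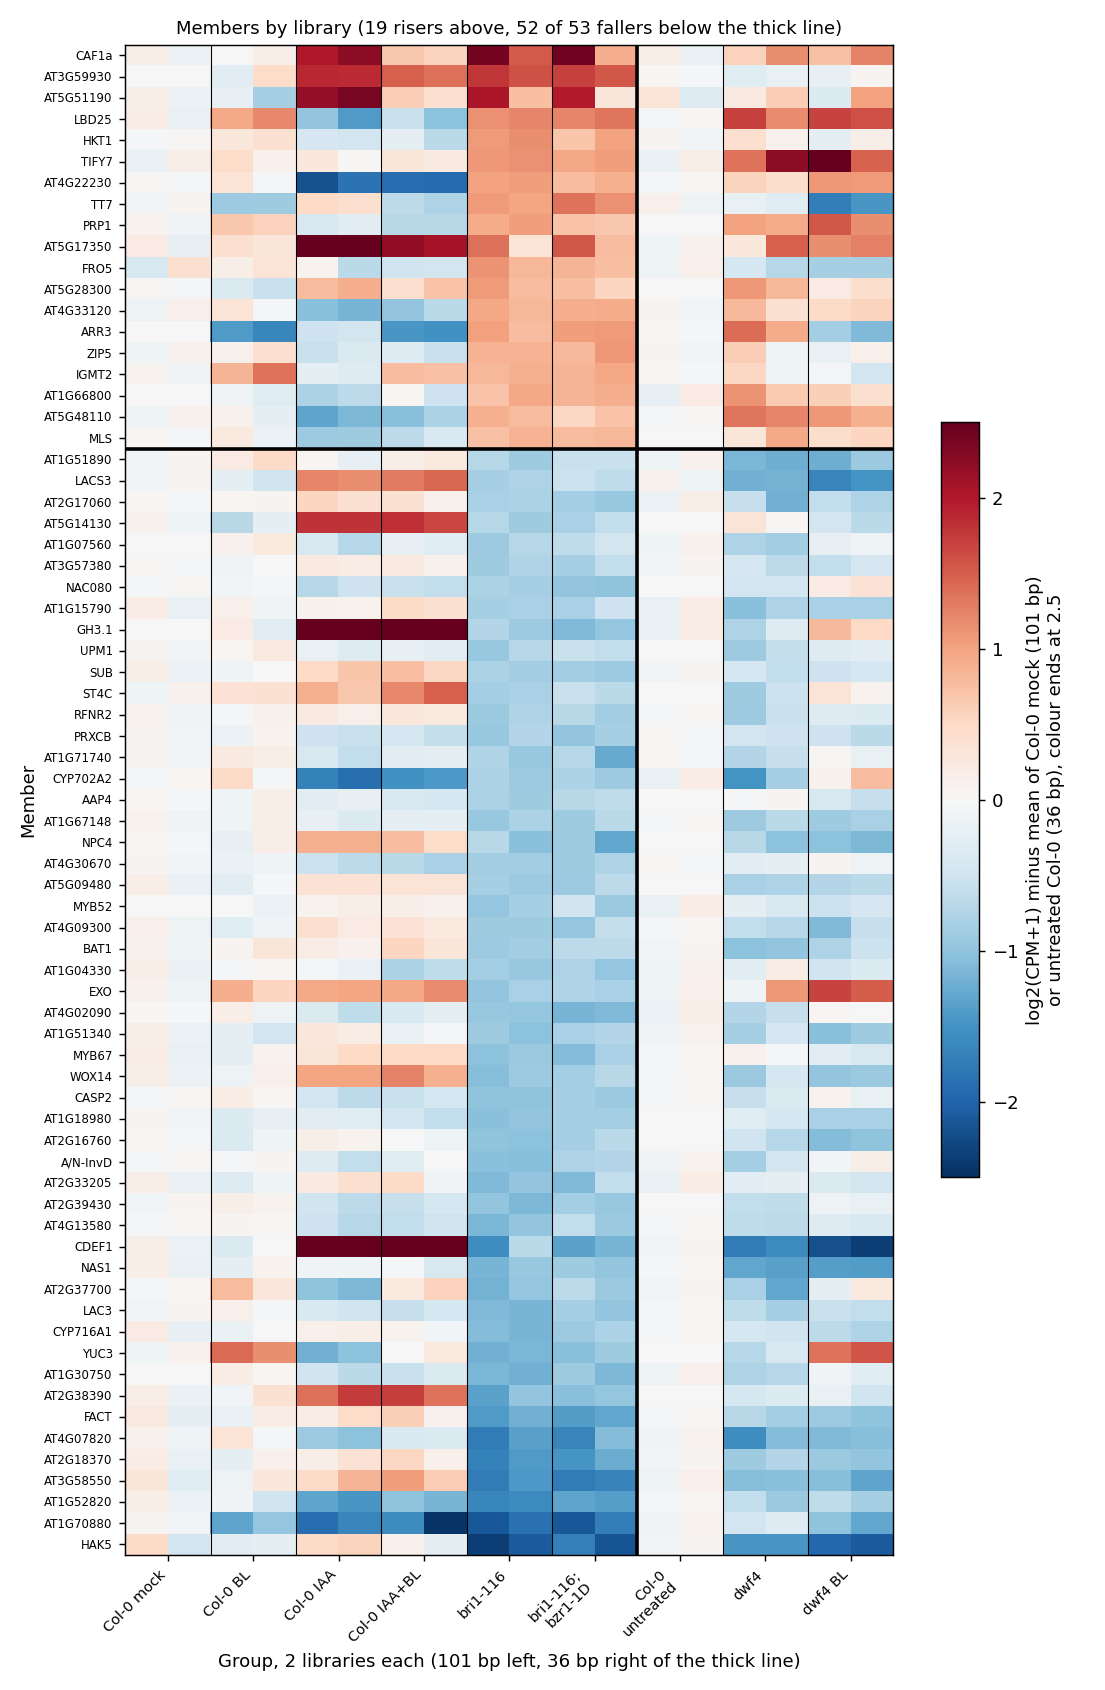
Level of the members in each of the 18 libraries, as log2(CPM + 1) minus the mean of mock-treated Col-0 (101 bp) or of untreated Col-0 (36 bp), with the colour ending at 2.5. The 19 risers are above and 52 of the 53 fallers below the thick horizontal line, and most fallers are also blue in dwf4, where 44 of 53 passed the test.

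The dwf4 libraries took no part in the choice of the members. In dwf4 against untreated Col-0, 9 of the 18 risers tested rose and 0 fell, and 44 of the 53 fallers fell and 0 rose (edgeR's quasi-likelihood test, Benjamini-Hochberg adjusted p under 0.05 over 19558 genes). Over all genes tested, 4.79% were higher and 7.93% lower, and over those that reached the 5 CPM level 5.00% and 9.10%. The median fitted log2 fold change was 0.75 in the risers, -0.78 in the fallers and 0.01 over all genes tested. At an unadjusted p under 0.05, 1 riser was lower and 0 fallers were higher, and DESeq2 called 0 of each. The ferric reductase gene FRO5 was not tested at 36 bp because it had too few counts. Genes whose bri1-116 difference moved back in the double mutant behaved in the same direction in dwf4, with 139 of 314 rises higher (44.3%) and 243 of 416 falls lower (58.4%). The difference between these shares and those of the members was not tested.

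The count rested on both Col-0 libraries. Without untreated Col-0 replicate 1, 5 risers rose and 26 fallers fell. Without untreated Col-0 replicate 2, the numbers were 3 and 23. Without dwf4 replicate 1, 1 faller was called higher, EXO, at 1.03 ± 0.105 (fitted log2 ± SE, adjusted p = 0.000263 by edgeR's quasi-likelihood test). Of the members, 4 risers and 14 fallers met the choice rule however one of the 6 libraries behind it was left out. In dwf4, 2 of those 4 risers (TIFY7 and LBD25) rose and 13 of those 14 fallers fell.

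**Figure D2:**
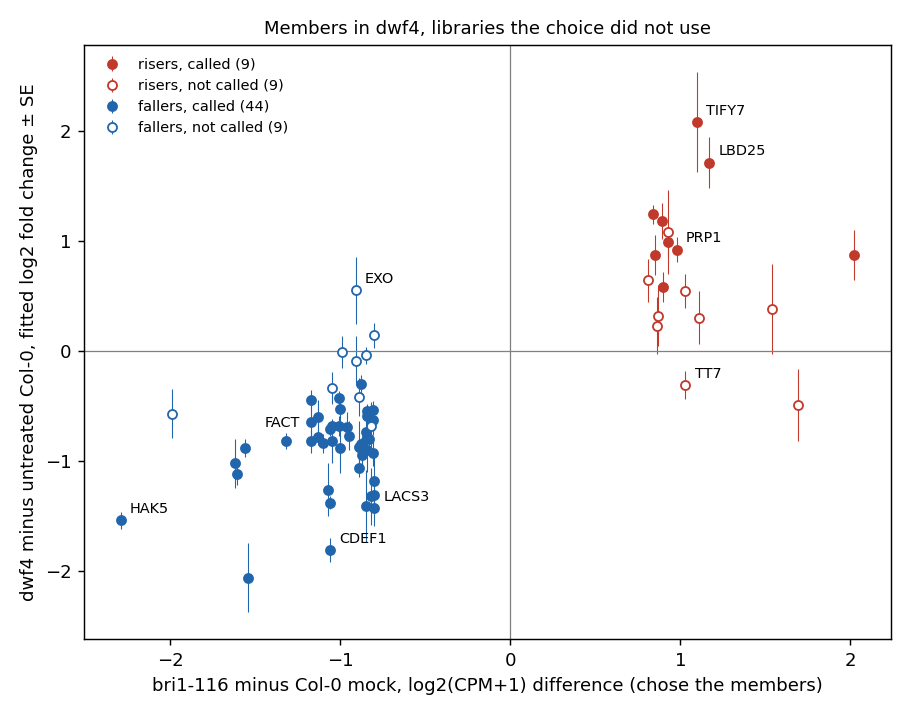
Each point is a member, with its bri1-116 minus mock difference on the horizontal axis (log2(CPM + 1), the value that chose it) and its fitted log2 fold change in dwf4 against untreated Col-0 on the vertical axis, with bars of 1 SE. Filled points passed the test, 9 risers above 0 and 44 fallers below 0. TT7 is a riser on the negative side and EXO a faller on the positive side, and neither passed.

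Among the fallers were genes of the endodermal barrier. The Casparian strip is a lignin band in the wall of the endodermis that forces solutes through the cells, and CASP proteins mark the membrane where it forms. CASP2 (AT3G11550) read 101 and 105 CPM in mock-treated Col-0, 50.8 and 50.9 in bri1-116, and 57.7 and 53.4 in the double mutant. The 4 mutant libraries lay far below both mock libraries.

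In the libraries not used for the choice, CASP2 read 56.4 and 58.1 CPM in untreated Col-0, 38.3 and 44.2 in dwf4, and 61.2 and 50.5 in dwf4 with BL. Its fitted log2 fold change in dwf4 was -0.53 ± 0.108 (SE, adjusted p = 0.0158), and after BL it rose by 0.46 ± 0.108 (adjusted p = 0.0273, edgeR's quasi-likelihood test). The dwf4 libraries were the lowest, and the BL-treated libraries overlapped untreated Col-0. Untreated Col-0 was itself at the level of the 101 bp double mutant and well below mock-treated Col-0, across read lengths and experiments.

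CASP2 belongs to a 10-gene endodermis list. Its relative CASP1 also passed the bri1-116 threshold but was no member, as it stood at -1.06 in bri1-116 and moved back by 0.45 in the double mutant on the log2(CPM + 1) scale. CASP4, of the same family, stood at -0.31 in bri1-116 and a further -0.60 from there in the double mutant. Of the 9 list genes tested in dwf4, 2 rose (CASP5 and SCR) and 4 fell (CASP1, CASP2 and CASP4 among them). With BL in dwf4, 6 rose and 1 fell, the last being SCR, a transcription factor that specifies the endodermis.

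Other fallers encode wall, lignin and lipid-barrier products, a grouping made after their values were seen. LAC3 (AT2G30210) is a laccase, an enzyme class that oxidizes lignin precursors, and read 154 and 166 CPM in untreated Col-0, 103 and 89.8 in dwf4, and 108 and 104 after BL. It fell by 0.78 in dwf4 (log2, SE 0.0772, adjusted p = 0.000687), and its change with BL, 0.15 ± 0.078, did not pass the test. FACT (AT5G63560) makes caffeate esters of fatty alcohols found in root waxes. It read 107 and 110 CPM in untreated Col-0, 66.9 and 60 in dwf4, and 57.2 and 53.2 after BL. FACT fell by 0.82 in dwf4 (SE 0.0742, adjusted p = 0.000516), and with BL it stood -0.18 ± 0.0763 from dwf4 (adjusted p = 0.16).

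After BL the CASP2 libraries thus overlapped those of Col-0, whereas LAC3 and FACT remained below both untreated Col-0 libraries. The dirigent-like genes AT2G39430 and AT4G13580 changed by -0.68 and -0.71 in dwf4 and by 0.49 and 0.33 with BL (log2, all past the test). The lipid-transfer-like genes AT2G18370 and AT3G58550 changed by -0.88 and -1.12 in dwf4, and with BL stood at -0.13 and -0.12 without passing the test. The acyl-CoA synthetase gene LACS3 fell by 1.43. The peroxidase genes PRXCB and AT2G38390 changed by -0.55 and -0.45, though counts may have been split between either gene and near-identical copies of it. The peroxidase gene AT5G14130 stood at 0.14 and did not pass.

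CDEF1 (AT4G30140), a cutinase-like esterase, read 56.7 and 46.5 CPM in mock-treated Col-0 and 16.8 and 31.7 in bri1-116. Untreated Col-0 read 33.0 and 36.4, dwf4 9.65 and 10.9, and dwf4 with BL 6.75 and 5.99 CPM. IAA stood far above all of these, at 661 and 571 CPM alone and 463 and 461 with BL. CDEF1 fell by 1.81 in dwf4 (log2, SE 0.111, adjusted p = 0.000108) and dropped by 0.67 after BL (SE 0.134, adjusted p = 0.0141). The drop after BL did not pass in a fit of all 18 libraries (-0.67) or without BL-treated dwf4 replicate 2 (-0.58).

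**Figure D3:**
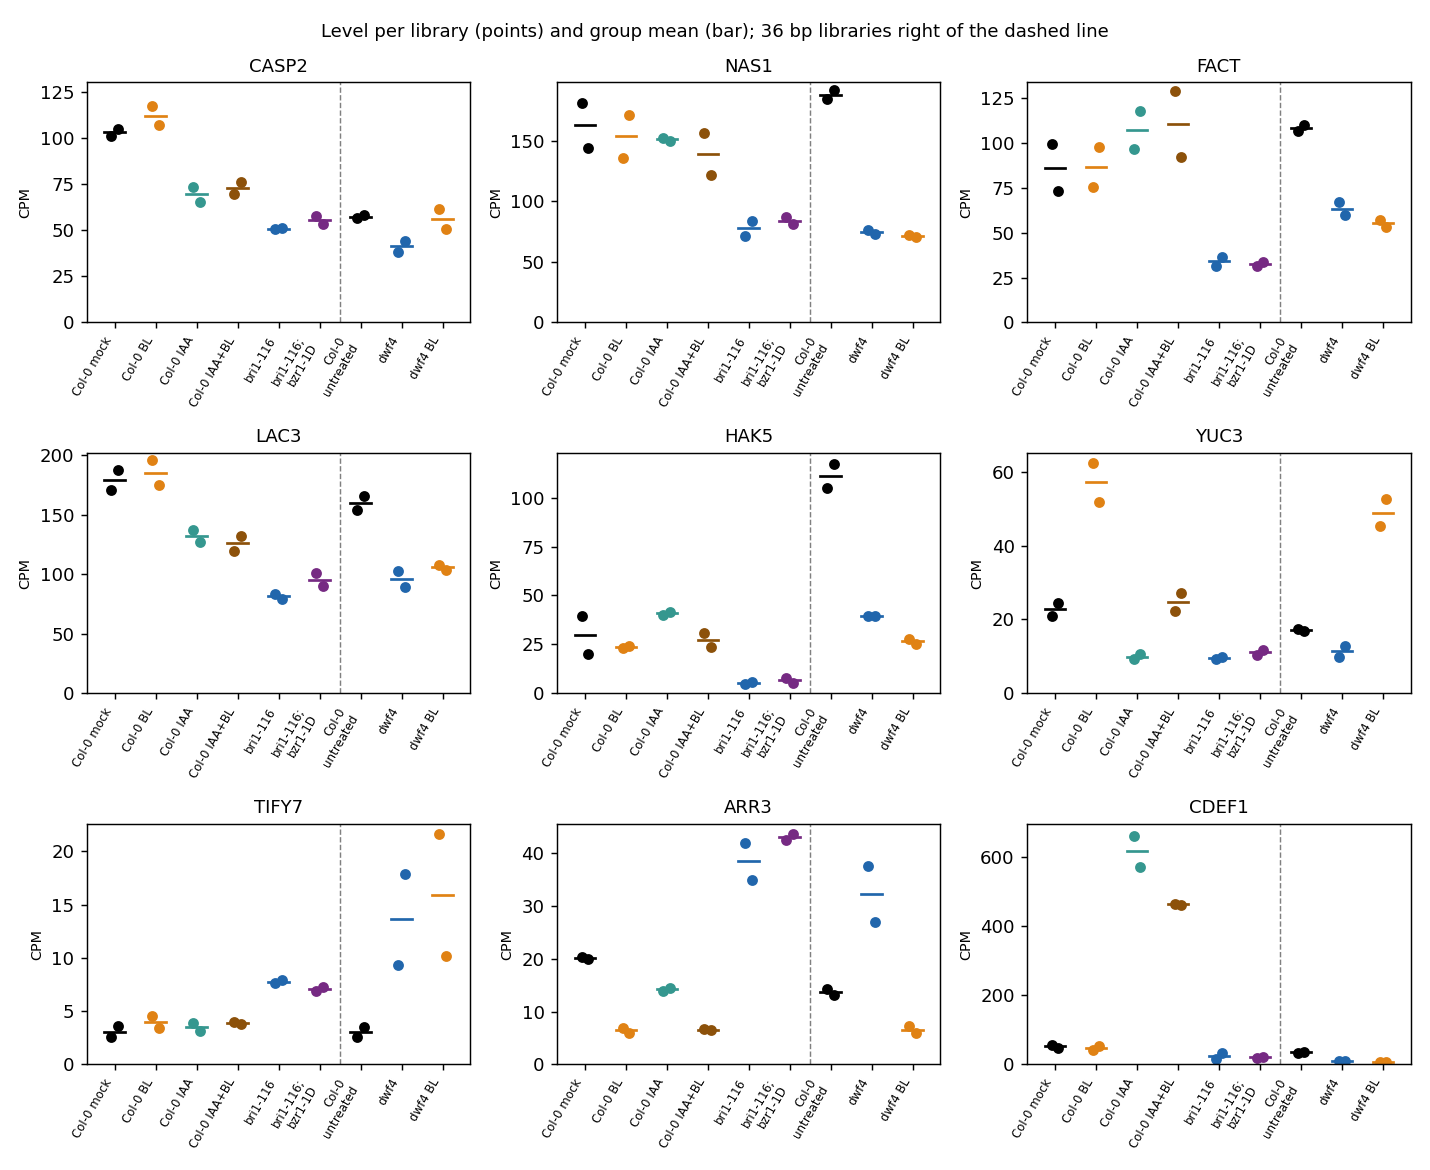
CPM of 9 members in each library (points) with the group mean (bar), each panel starting at 0 and the 36 bp libraries right of the dashed line. CASP2 and YUC3 stand higher in dwf4 after BL than in untreated dwf4, whereas FACT, NAS1, HAK5 and CDEF1 do not, and CDEF1 is highest after IAA at 661 and 571 CPM.

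Suberin is the waxy polymer laid down in older endodermis. Of 20 suberin genes, 8 passed the bri1-116 threshold downward and 0 of them were members. CYP86A1, a fatty acid hydroxylase of suberin synthesis, stood at -1.36 in bri1-116 and moved back by 0.99 in the double mutant. In a list of 19 xylem and secondary wall genes, 11 passed downward and 0 were members, and the xylem protease gene XCP2 stood at -1.02 and moved back by 0.88. Among all 476 genes that passed downward 11.1% were members, so counts of 0 of 8 and 0 of 11 lie near that share, and the lists were not tested against the endodermis list. In dwf4, 10 of 20 suberin genes and 13 of 19 xylem genes fell, and 0 of either list rose (1 and 0 at an unadjusted p under 0.05, and 0 and 0 by DESeq2).

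Summed markers of endodermis, suberin and xylem were also lower in bri1-116 than in mock-treated Col-0, but not all stayed low in the double mutant. The summed level of 7 endodermis markers, CASP2 among them, was 468 to 506 CPM in mock-treated Col-0, 256 to 257 in bri1-116 and 284 to 325 in the double mutant. It was 271 to 284 CPM in untreated Col-0, likewise well below mock-treated Col-0, 195 to 211 in dwf4 and 272 to 294 after BL. The 5 that were no members summed to 314 to 342, 180 to 181 and 205 to 237 CPM in the first 3 groups, and to 180 to 186, 135 to 145 and 184 to 195 in the others.

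Suberin markers (5 genes) summed to 535 to 558 CPM in mock-treated Col-0, 259 to 275 in bri1-116 and 412 to 440 in the double mutant. Xylem markers (6 genes) summed to 489 to 505, 262 to 269 and 496 to 497 CPM in those groups. No endodermis, suberin or xylem marker was at 0 in both libraries of a group. In the double mutant the xylem sum was back at the mock level, the suberin sum was between the mock level and bri1-116, and the endodermis sum was above bri1-116 but nearer to it than to mock. In bulk RNA, fewer cells of a type and less RNA per cell cannot be told apart, and the part of these markers in the members' values was not tested.

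**Figure D4:**
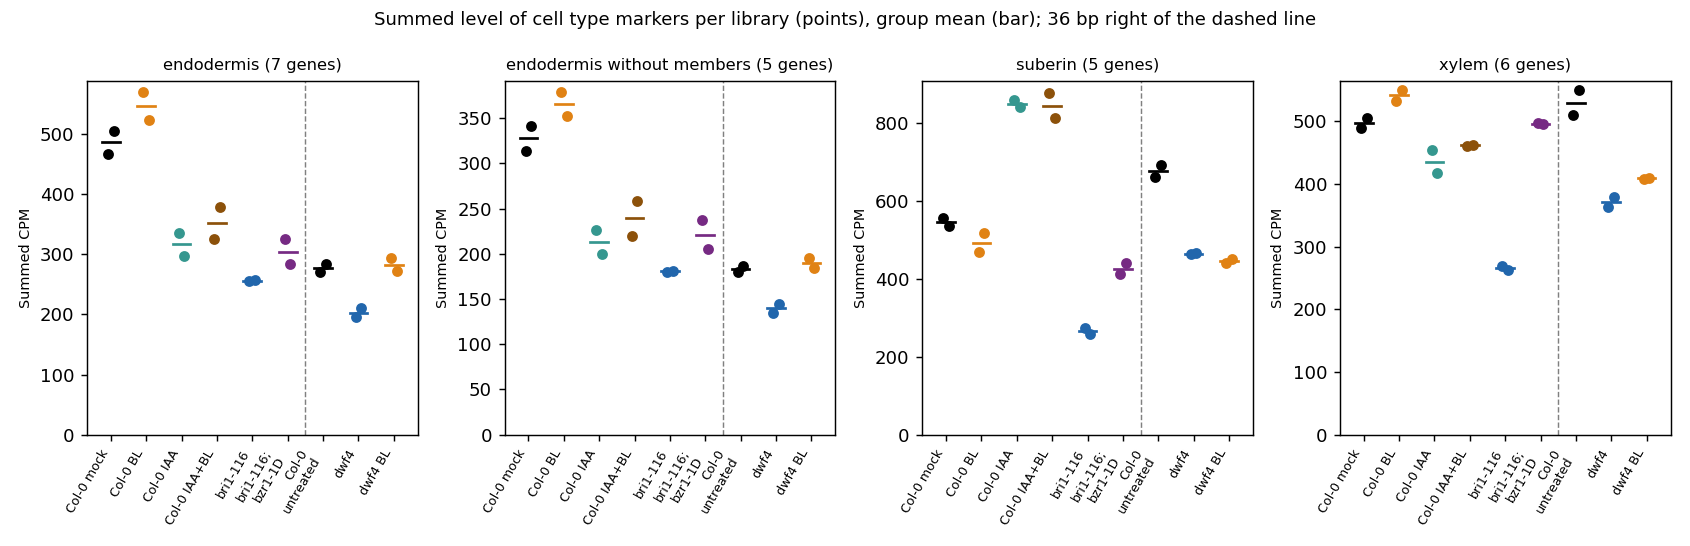
Summed CPM of fixed marker genes per library (points) with group means (bars): 7 endodermis markers, the 5 of them that were no members, 5 suberin markers and 6 xylem markers, with 36 bp libraries right of the dashed line. In the double mutant the xylem sum (496 to 497) lies within the mock range, and the endodermis sum (284 to 325) lies below it.

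Several fallers encode transporters and enzymes of mineral nutrition, a grouping made from the members and not from a fixed list. Lists of nitrogen transport and assimilation, phosphate starvation and sulfur deficiency had 1, 2 and 3 genes past the bri1-116 threshold downward, and 0 were members. Members were 11.1% of all falls, so these counts lie near that share. HAK5 (AT4G13420), a high-affinity potassium uptake transporter, read 39.6 and 20.0 CPM in mock-treated Col-0, 4.69 and 5.88 in bri1-116, and 7.95 and 5.52 in the double mutant. Untreated Col-0 read 105 and 117, dwf4 39.6 and 39.7, and dwf4 with BL 27.7 and 25.3 CPM. The untreated Col-0 libraries were thus well above the mock-treated ones, and dwf4 was at the level of the upper mock library. HAK5 fell by 1.54 in dwf4 (log2, SE 0.0796, adjusted p = 4.88e-05) and dropped by 0.56 with BL (SE 0.0859, adjusted p = 0.00411), a drop that did not pass in a fit of all 18 libraries (-0.56).

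NAS1 (AT5G04950) makes nicotianamine, a chelator that carries iron and other metals. It read 184 and 192 CPM in untreated Col-0, 76.3 and 72.8 in dwf4, and 72.0 and 70.6 after BL, and fell by 1.38 in dwf4 (SE 0.0597, adjusted p = 3.22e-05). With BL it stood -0.05 ± 0.0609 from dwf4 and did not pass (adjusted p = 0.664). In a 23-gene iron and copper list, 6 genes passed the bri1-116 threshold downward and NAS1 was the only member among them. Among all 476 genes that passed downward 11.1% were members, so 1 of 6 lies near that share, and the list was not tested. The iron transporter gene IRT1 stood at -1.58 in bri1-116 and moved back by 1.86, and the ferric reductase gene FRO2 stood at -1.48 and moved back by 1.73.

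In dwf4, 9 of 21 list genes fell and 0 rose (1 at an unadjusted p under 0.05, 0 by DESeq2), with IRT1 at -1.86 and FRO2 at -1.62. The list also held a riser, FRO5 (AT5G23990), which read 2.11 and 4.38 CPM in mock-treated Col-0, 7.91 and 6.27 in bri1-116, and 6.36 and 5.88 in the double mutant. It read at most 0.959 CPM in every 36 bp library and had no counts in either BL-treated dwf4 library. FRO5 has a close copy, FRO4, and short reads may not separate them. AAP4 (AT5G63850), an amino acid permease, did not pass in dwf4 (-0.04 ± 0.0749, adjusted p = 0.756) and fell by 0.47 with BL (SE 0.0759, adjusted p = 0.00521).

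Root enzymes of reduction and sirohaem synthesis were also fallers. RFNR2 (AT1G30510), a root ferredoxin reductase, read 652 and 673 CPM in untreated Col-0, 351 and 450 in dwf4 and 528 and 526 after BL. UPM1 (AT5G40850), a methylase of sirohaem synthesis, read 281 and 284, then 151 and 187, then 225 and 235 CPM. In both genes BL-treated dwf4 lay between dwf4 and Col-0 without overlap. RFNR2 fell by 0.78 and UPM1 fell by 0.80 in dwf4 (log2, adjusted p = 0.00206 and 0.00126), and they rose by 0.42 and 0.47 with BL (adjusted p = 0.0279 and 0.012).

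YUC3, GH3.1 and BAT1 were named fallers tied to hormone metabolism. YUC3 (AT1G04610), a flavin monooxygenase of auxin synthesis, read 20.9 and 24.5 CPM in mock-treated Col-0, 9.27 and 9.77 in bri1-116 and 10.4 and 11.8 in the double mutant. In Col-0 it read 62.3 and 51.8 with BL, 9.22 and 10.6 with IAA, and 22.4 and 27.1 with both. In the other experiment it read 17.3 and 16.9 in untreated Col-0, 9.97 and 12.7 in dwf4, and 45.2 and 52.6 CPM after BL. YUC3 was high in every BL library, except that IAA with BL read close to mock, and low in every brassinosteroid mutant library without BL. It fell by 0.65 in dwf4 (SE 0.134, adjusted p = 0.0166) and rose with BL by 2.13 in dwf4 (SE 0.124, adjusted p = 4.41e-05) and by 1.29 beside IAA (SE 0.124, adjusted p = 4.48e-06).

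GH3.1 (AT2G14960) belongs to the enzymes that conjugate auxin to amino acids. It read 17.3 and 17.1 CPM in mock-treated Col-0, 9.93 and 8.64 in bri1-116, 7.42 and 8.28 in the double mutant, and 527 and 518 after IAA. Its fitted difference in dwf4, -0.68 ± 0.217, did not pass the test (adjusted p = 0.0812), and it rose by 1.34 with BL in dwf4 (SE 0.208, adjusted p = 0.00444). Among 20 auxin response genes, 3 passed the bri1-116 threshold downward, of which GH3.17 and IAA3 moved back by 0.90 and 0.92. GH3.1 was the only member among the 3. Members were 11.1% of all falls, and the list was not tested. In dwf4, 3 of the 19 tested fell (IAA14, GH3.2 and GH3.3) and 0 rose (2 at an unadjusted p under 0.05, 0 by DESeq2).

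BAT1 (AT4G31910), an acyltransferase linked to brassinosteroid inactivation, read 234 and 258 CPM in untreated Col-0, 120 and 124 in dwf4, and 143 and 168 after BL. It fell by 1.06 in dwf4 (SE 0.0819, adjusted p = 0.000229) and rose by 0.37 with BL (SE 0.0822, adjusted p = 0.0211). ST4C (AT1G13430) is annotated as a sulfotransferase with no substrate named, and it need not act on a hormone. It fell by 0.90 in dwf4 and rose by 1.12 with BL (adjusted p = 0.0208 and 0.00758, edgeR's quasi-likelihood test). None of the fixed lists of brassinosteroid synthesis (10 genes), signalling (15) and inactivation (4) held a member, and BAT1 was in none of them. Only 1 synthesis gene passed the bri1-116 threshold upward and 1 inactivation gene downward, and 0 signalling genes passed. Members were 5.54% of all rises and 11.1% of all falls, so the absence of members in these lists lies near those shares. The synthesis gene BR6OX2 read 25.9 ± 1.09, 75.1 ± 1.85 and 26.0 ± 1.59 CPM (SD, n = 2) in mock-treated Col-0, bri1-116 and the double mutant, and the inactivation gene BAS1 stood at -0.86 and moved back by 0.46.

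Of the cytochrome P450 fallers, CYP702A2 (AT4G15300) fell by 1.41 in dwf4 and rose by 1.88 with BL, and CYP716A1 (AT5G36110), a triterpene oxidase family member, fell by 0.60 and did not pass with BL (-0.28 ± 0.168). The call on CYP702A2 in dwf4 did not pass without dwf4 replicate 1 (-1.05), untreated Col-0 replicate 1 (-1.58) or untreated Col-0 replicate 2 (-1.18). EXO (AT4G08950), known as a brassinosteroid-induced growth gene, was one of the 9 fallers that did not pass in dwf4. It read 58.0 and 68.8 CPM in untreated Col-0, 58.7 and 135 in dwf4, and 207 and 182 after BL. The dwf4 libraries lay far apart, so the difference of 0.55 ± 0.304 did not pass (adjusted p = 0.282), and without dwf4 replicate 2 it was -0.17. With BL it stood 1.03 ± 0.295 above dwf4 (adjusted p = 0.0538), or 1.75 without dwf4 replicate 2 (adjusted p = 1.49e-05) and 0.55 without replicate 1 (adjusted p = 0.00787, edgeR's quasi-likelihood test).

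Among the risers, TIFY7 (AT1G70700, also called JAZ9) encodes a repressor of jasmonate responses. It read 2.58 and 3.56 CPM in mock-treated Col-0, 7.60 and 7.90 in bri1-116, and 6.89 and 7.30 in the double mutant. The untreated Col-0 libraries read 2.58 and 3.51, dwf4 9.33 and 17.9, and dwf4 with BL 21.6 and 10.2 CPM. All mutant libraries were above all Col-0 libraries in both experiments, and the BL-treated and untreated dwf4 libraries overlapped. TIFY7 rose by 2.08 in dwf4 (log2, SE 0.456, adjusted p = 0.0208), though it did not pass without dwf4 replicate 2 (1.54) or without either untreated Col-0 library (1.90 and 2.33).

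TIFY7 was 1 of 9 genes of a 26-gene jasmonate list that passed the bri1-116 threshold upward and the only member among them. Among all 343 genes that passed upward 5.54% were members, so 1 of 9 lies near that share, and the list was not tested. JAZ10 was 3.14 higher in bri1-116 and stood at -2.88 from there in the double mutant, with levels of 2.18 ± 0.276, 27.1 ± 3.54 and 2.80 ± 0.322 CPM (SD, n = 2) in mock-treated Col-0, bri1-116 and the double mutant. VSP2, a vegetative storage protein gene used as a jasmonate reporter, was 3.46 higher, with a double mutant difference of -2.60 from there. In dwf4, 6 of 24 jasmonate genes rose and 0 fell (1 at an unadjusted p under 0.05, 0 by DESeq2), among them VSP2, JAZ1 and JAZ10. The dwf4 libraries were far apart for some of these genes, at 21.1 ± 15.8 CPM for JAZ10 and 253 ± 111 for JAZ1, and close for VSP2 at 9.96 ± 0.216 (SD, n = 2).

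LBD25 (AT3G27650), a LOB-domain transcription factor gene, read 2.96 and 2.04 CPM in mock-treated Col-0, 6.67 and 7.05 in bri1-116, and 7.11 and 7.75 in the double mutant. Untreated Col-0 read 2.58 and 2.88, dwf4 11.2 and 7.40, and dwf4 with BL 11 and 10.4 CPM. LBD25 rose by 1.71 in dwf4 (SE 0.228, adjusted p = 0.00248), and with BL it stood 0.22 ± 0.188 from dwf4 (adjusted p = 0.48). In Col-0 its levels with BL, 5.72 and 6.99 CPM, were also above both mock libraries, and with IAA it read 0.741 and 0.3 CPM. With IAA and BL together it read 1.35 and 0.705 CPM, below both mock libraries. LBD25 was thus high in the mutants and in Col-0 after BL alone, and low in all 4 libraries given IAA.

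PRP1 (AT1G54970), a proline-rich wall protein of root hairs, read 98.2 and 87.3 CPM in mock-treated Col-0, 176 and 192 in bri1-116 and 153 and 148 in the double mutant. It read 83.3 and 85.5 in untreated Col-0, 171 and 161 in dwf4 and 248 and 190 after BL. PRP1 rose by 0.92 in dwf4 (SE 0.115, adjusted p = 0.00187) and by 0.42 more with BL (SE 0.112, adjusted p = 0.0406), the latter not passing without BL-treated dwf4 replicate 1 (0.21) or dwf4 replicate 2 (0.38). It was the only gene of a 17-gene root hair list to pass the bri1-116 threshold upward. Members were 5.54% of all rises, and the list was not tested. Summed root hair markers (7 genes) were 554 to 563 CPM in mock-treated Col-0, 707 to 723 in bri1-116, 583 to 596 in the double mutant, 382 to 416 in untreated Col-0 and 576 to 601 in dwf4, and their part in this result was not tested.

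ARR3 (AT1G59940) is a type-A response regulator, a class that dampens cytokinin signalling. It read 20.4 and 20.0 CPM in mock-treated Col-0, 41.9 and 35.0 in bri1-116 and 42.5 and 43.6 in the double mutant. Untreated Col-0 read 14.3 and 13.2, dwf4 37.6 and 27.0 and BL-treated dwf4 7.22 and 5.84 CPM. Libraries with BL were the lowest and the mutants without BL the highest, with no overlap between them.

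ARR3 rose by 1.18 in dwf4 (SE 0.165, adjusted p = 0.003), which did not pass without untreated Col-0 replicate 2 (1.12), and with BL it fell by 2.29 (SE 0.184, adjusted p = 0.000181). Among 10 type-A regulators ARR3 was the only one past the bri1-116 threshold, and ARR4, ARR5 and ARR6 stood at -0.29, -0.23 and -0.39. Members were 5.54% of all rises, and the list was not tested. In dwf4, 2 of 9 rose, ARR3 and ARR15, and 0 fell (0 at an unadjusted p under 0.05 and 0 by DESeq2).

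The remaining risers encode varied products. AT5G48110, a terpenoid cyclase gene, rose by 1.24 in dwf4 (SE 0.0838, adjusted p = 0.000137), AT5G28300, a trihelix-like DNA-binding protein gene, by 0.99 (adjusted p = 0.0031), AT1G66800 by 0.87 (adjusted p = 0.0156) and AT4G33120 by 0.58 (adjusted p = 0.0255). Those that did not pass in dwf4 included HKT1, a sodium transporter gene (0.30 ± 0.242), MLS, the glyoxylate cycle enzyme malate synthase (0.64 ± 0.195), and IGMT2, an indole glucosinolate methyltransferase gene with close copies (0.23 ± 0.257). The defensin-like gene AT3G59930 read 3.63 and 3.70 CPM in mock-treated Col-0 and 15.1 and 13 in bri1-116. At 36 bp it read at most 1.53 CPM in every library and did not pass in dwf4 (-0.49 ± 0.329).

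Some members stood at their mutant level in untreated Col-0, as CASP2 did among the fallers. CAF1a (AT3G44260), a deadenylase gene, read 4.01 and 3.12 CPM in mock-treated Col-0, 23.0 and 12.1 in bri1-116 and 15.5 ± 11.4 in the double mutant (SD, n = 2), but 25.9 and 20.6 in untreated Col-0. AT5G51190, an AP2/ERF-type factor gene, read 2.79 and 2.1 in mock-treated Col-0, 13.2 and 4.81 in bri1-116 and 15.9 and 9.91 in untreated Col-0. TT7 (AT5G07990), a flavonoid hydroxylase gene, read 9.80 and 10.8, 22.6 and 21.5, and 30.6 and 25.4 CPM in the same groups.

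TT7 belongs to an 11-gene flavonoid list. BL lowered 6 of the 8 list genes tested in dwf4 and 5 of the 7 tested beside IAA, and raised 0 in either (0 at an unadjusted p under 0.05 and 0 by DESeq2 in both).

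For CAF1a, AT5G51190 and TT7 the untreated Col-0 and bri1-116 libraries overlapped or Col-0 was higher, and the comparison crosses read lengths and experiments. Between the 2 Col-0 controls, 4 risers were higher in the untreated one by 0.8 or more and 3 lower. The shares over all loci at that level were 0.573% and 1.51%. Among the fallers, 2 were higher and 3 lower (AT1G70880, CASP2 and AT4G07820). This comparison shares the mock libraries that chose the members, so its counts are not free of that choice. They are described without a test. AT4G07820 read 13.3 and 11.2 CPM in mock-treated Col-0, 2.95 and 4.14 in bri1-116 and 3.52 and 4.15 in untreated Col-0. In a 19-gene touch and handling list, 4 genes passed the bri1-116 threshold upward and 0 were members. Among all 343 genes that passed upward 5.54% were members, so 0 of 4 lies near that share. CAF1a rose by 0.87 in dwf4 (SE 0.228, adjusted p = 0.0416) but did not pass by DESeq2, in a fit of all 18 libraries (both 0.86), or without dwf4 replicate 2 (0.53) or either untreated Col-0 library (1.04 and 0.70).

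BL was tested on dwf4 and, beside IAA, on Col-0, in libraries that share no sample. In dwf4, 2 risers rose (PRP1 and the defensin-like gene AT4G22230) and 3 fell (ARR3, TT7 and AT5G28300), while 18 of 53 fallers rose and 7 fell. Over all 19558 genes, 7.86% rose and 5.45% fell, and at the 5 CPM level 8.78% and 6.15%. Of the falls that moved back in the double mutant, 108 of 416 rose (26.0%) and 17 fell. The contrast uses the same dwf4 libraries as dwf4 against Col-0, so the 2 sets of calls are not independent, and untreated dwf4 stood in for a mock. Without BL-treated dwf4 replicate 1, 0 risers and 11 fallers rose. Without its replicate 2, 1 riser rose and 4 fallers fell, and without dwf4 replicate 2, 1 riser rose and 6 fell.

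Beside IAA in Col-0, BL raised 2 risers (IGMT2 and AT1G66800) and lowered 6, and it raised 4 fallers (YUC3, ST4C, AT2G37700 and AT4G07820) and lowered 3 (AT1G04330, AT1G18980 and AT1G51340). Over all 20644 genes tested, 5.40% rose and 5.13% fell, and at the 5 CPM level 6.02% and 5.98%, so the share of fallers that rose, 7.55%, was near the background, and the share of risers that fell was 31.6%. Among the falls that moved back in the double mutant, 112 of 416 rose, 26.9%. Some of these small counts rested on single libraries. Without either IAA library or without IAA with BL replicate 1, 1 riser rose. Without IAA replicate 1, 0 fallers fell, without IAA with BL replicate 1, 1 fell, and without IAA replicate 2, 2 fallers rose.

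Both settings called 7 members. ARR3 and TT7 fell in both, at -2.29 and -1.41 in dwf4 and -1.14 and -1.34 beside IAA. YUC3, ST4C and the fatty acid hydroxylase-like gene AT2G37700 rose in both, by 2.13, 1.12 and 1.25 in dwf4 and by 1.29, 0.52 and 1.58 beside IAA. ST4C beside IAA did not pass without IAA with BL replicate 2 (0.36) or IAA replicate 2 (0.42). The cupin-like gene AT1G18980 fell in both, at -0.41 and -0.28, and PRP1 rose by 0.42 in dwf4 and fell by 0.40 beside IAA.

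**Figure D5:**
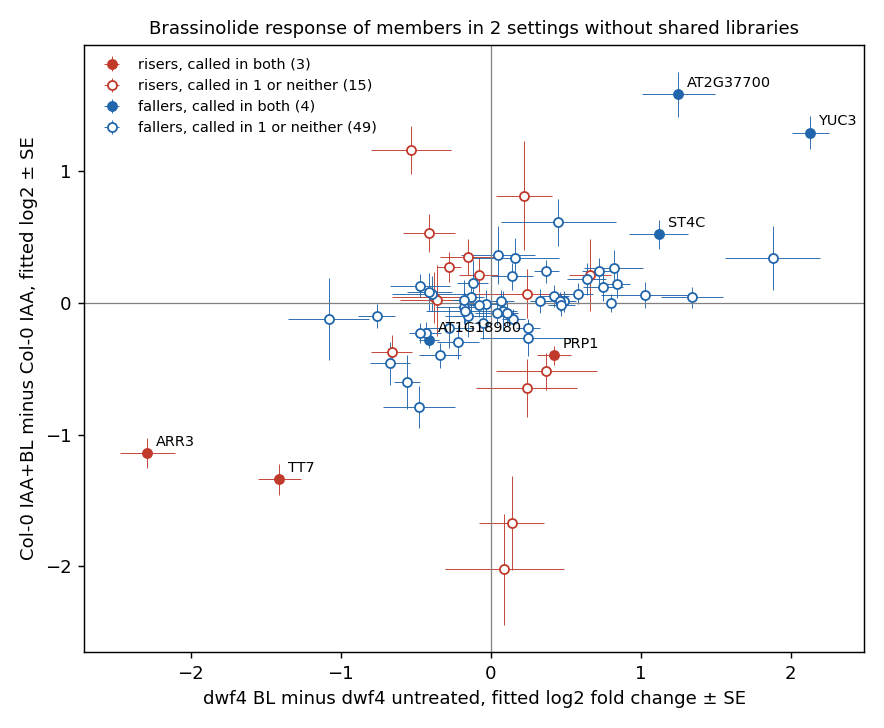
Fitted log2 fold change of each member with BL in dwf4 (horizontal) and with BL beside IAA in Col-0 (vertical), with bars of 1 SE. The 7 filled points passed in both settings, of which YUC3, ST4C and AT2G37700 are positive in both, ARR3, TT7 and AT1G18980 negative in both, and PRP1 positive in dwf4 and negative beside IAA.

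For IAA beside BL in Col-0, 3 risers rose (AT3G59930, AT5G17350 and AT5G28300) and 10 fell, and 17 fallers rose and 22 fell. Over all genes tested, 28.5% rose and 27.8% fell, so 56.2% passed in one direction or the other. At the 5 CPM level 30.2% rose and 31.4% fell. The share of fallers that rose, 32.1%, was near the background, and the share that fell was 41.5%. Of the risers, 15.8% rose and 52.6% fell. The differences from the background were not tested. Without BL replicate 1, 11 fallers rose. This contrast shares the IAA with BL libraries with the one before it. GH3.1 rose by 4.94 (log2, SE 0.108, adjusted p = 2.08e-15), CDEF1 by 3.31 (SE 0.187, adjusted p = 2.34e-10), AT5G14130 by 2.25 and LACS3 by 1.78.

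CASP2, the dirigent-like pair AT2G39430 and AT4G13580, and LAC3 fell with IAA beside BL, at -0.67, -0.68, -0.65 and -0.61. Among risers, AT4G22230 fell by 2.77 (SE 0.193, adjusted p = 2.98e-09), LBD25 fell by 2.55 (SE 0.281, adjusted p = 8.05e-07) and PRP1 fell by 1.38 (SE 0.0715, adjusted p = 7.17e-11). Fallers went both ways under IAA, as did genes in general. The peroxidase genes went both ways too, with AT2G38390 at 1.36 and PRXCB at -0.52. In the same libraries, summed endodermis markers were 524 to 570 CPM with BL and 326 to 379 with IAA and BL, and suberin markers 469 to 517 and 814 to 878 CPM. Their part in these values was not tested.

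Against mock the hormone effects share the libraries that chose the members and are described without a test. After BL alone, 2 risers (IGMT2 and LBD25) were higher by 0.8 or more on the log2(CPM + 1) scale and 2 lower (ARR3 and TT7), and 1 faller was higher (YUC3) and 1 lower (AT1G70880), against 0.268% and 0.461% of loci at that level. The median difference was 0.17 in risers and 0.00 in fallers. After IAA alone, 5 risers were higher and 5 lower, and 8 fallers higher and 6 lower, against 5.32% and 8.33%. With both hormones, 2 risers were higher and 4 lower, and 9 fallers higher and 3 lower, against 4.84% and 6.87%.

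Promoters were read as the 250 bases before each annotated gene start in the RefSeq TAIR10.1 sequence, and searched on both strands for the BZR1-type elements CGTGTG and CGTGCG and for the G-box CACGTG. A BZR1-type element was present in 1 of 19 risers (5.26%) and 2 of 53 fallers (3.77%), against 7.12% of the 16046 loci at that level with a window. A G-box was present in 1 riser, HKT1 (5.26%), and 1 faller, CYP702A2 (1.89%), against 7.37%. The elements may overlap, a match is no binding site by itself, and the absence of a match says only that these letters are not in this window. The first 3 sequences below are all the members' windows with a BZR1-type element, in capitals, and the other 4 are those of 2 risers and 2 fallers with large differences in dwf4, which hold neither motif.
PRP1, chr1:20504651-20504900, plus strand: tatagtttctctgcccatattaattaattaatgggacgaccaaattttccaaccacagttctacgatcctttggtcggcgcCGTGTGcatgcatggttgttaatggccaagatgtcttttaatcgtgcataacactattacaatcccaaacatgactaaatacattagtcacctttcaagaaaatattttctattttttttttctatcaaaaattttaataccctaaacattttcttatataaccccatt
AT2G16760, chr2:7275407-7275656, plus strand: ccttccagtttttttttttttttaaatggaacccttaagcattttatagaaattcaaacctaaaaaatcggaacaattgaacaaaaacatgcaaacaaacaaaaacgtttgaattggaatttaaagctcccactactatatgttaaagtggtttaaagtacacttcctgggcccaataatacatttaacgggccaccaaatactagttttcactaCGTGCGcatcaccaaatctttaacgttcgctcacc
AT4G02090, chr4:922872-923121, plus strand: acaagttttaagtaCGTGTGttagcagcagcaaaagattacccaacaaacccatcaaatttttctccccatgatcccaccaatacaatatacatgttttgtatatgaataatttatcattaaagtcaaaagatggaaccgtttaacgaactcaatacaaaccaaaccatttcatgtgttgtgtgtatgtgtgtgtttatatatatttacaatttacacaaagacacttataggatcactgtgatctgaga
TIFY7, chr1:26654279-26654528, plus strand: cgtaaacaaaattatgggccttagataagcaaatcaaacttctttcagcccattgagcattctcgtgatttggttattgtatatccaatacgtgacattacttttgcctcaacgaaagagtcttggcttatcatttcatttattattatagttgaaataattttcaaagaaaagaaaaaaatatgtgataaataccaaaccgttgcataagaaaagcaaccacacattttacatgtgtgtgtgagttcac
LBD25, chr3:10238264-10238513, plus strand: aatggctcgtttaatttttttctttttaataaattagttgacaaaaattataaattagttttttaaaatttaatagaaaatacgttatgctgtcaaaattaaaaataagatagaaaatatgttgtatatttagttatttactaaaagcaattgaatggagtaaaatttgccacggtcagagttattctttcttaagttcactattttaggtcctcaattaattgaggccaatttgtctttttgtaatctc
CDEF1, chr4:14740743-14740992, minus strand: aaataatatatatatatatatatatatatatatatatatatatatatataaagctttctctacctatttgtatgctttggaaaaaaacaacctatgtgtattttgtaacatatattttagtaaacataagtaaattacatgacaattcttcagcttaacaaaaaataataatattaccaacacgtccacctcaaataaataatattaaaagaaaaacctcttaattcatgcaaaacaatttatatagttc
HAK5, chr4:7802252-7802501, minus strand: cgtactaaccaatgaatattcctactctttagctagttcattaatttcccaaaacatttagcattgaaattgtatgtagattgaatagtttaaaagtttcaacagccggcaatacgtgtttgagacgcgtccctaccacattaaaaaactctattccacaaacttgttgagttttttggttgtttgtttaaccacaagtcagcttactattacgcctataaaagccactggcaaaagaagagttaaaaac

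AT2G16760, a phosphotriesterase-like gene, fell by 0.68 in dwf4 and fell by 0.43 with BL, and AT4G02090, annotated as an ABC transporter family gene, fell by 0.77 in dwf4 and rose by 0.75 with BL. The 3 members with a BZR1-type element thus moved in different directions with BL. The members lay on all 5 chromosomes, with 6, 0, 3, 3 and 7 risers and 19, 10, 6, 10 and 8 fallers on chromosomes 1 to 5. No pair of members lay within 10 loci of each other in the annotation. Within 200 loci on either side of BRI1, 9 of 162 expressed loci passed the bri1-116 threshold and 0 were members, and around BZR1 the numbers were 6 of 209 and 0.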

How the data were processed

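RNA-seq counts of 18 libraries were analysed. Per the submitters' processing notes, the authors used TopHat 1.4.0, Bowtie and HTSeq with the TAIR10 build, and they deposited raw whole-number counts per locus. Any annotation release, strand setting or filter is not given in the sources used here, so overlapping, antisense and near-identical genes may share reads. The 5 closing lines of each file, which name no gene, were left out (5.87% to 12.0% of a library's reads), and 0 columns were unused. Symbols and promoter sequences came from the RefSeq TAIR10.1 annotation and sequence.

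CPM were computed from library totals over all loci. Tests used edgeR 4.0.16 (limma 3.58.1, R 4.3.3): library sizes were scaled by TMM, low genes were removed by filterByExpr (count of at least 10, total of at least 15), each group had its own coefficient, and p-values of the quasi-likelihood test were adjusted by Benjamini-Hochberg over all genes tested, at 0.05. The 36 bp libraries (6, residual degrees of freedom 3) and the 101 bp libraries (12, residual degrees of freedom 6) were fitted apart, because read length coincides with the experiment. Fold changes used a prior count of 0.125. The procedure was tested on simulated data. DESeq2 1.42.0, library totals, no low-count filter, a fit of all 18 libraries, a replicate block and leaving out each library were the alternatives.

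The members, the 34 gene lists (489 of 491 entries matched by name) and the tests were chosen with earlier results of these data known. Named genes were, within risers and fallers, those with a symbol and the 8 largest bri1-116 differences, the 4 highest means over the 18 libraries, the largest called changes per tested comparison with a mean of at least 2 CPM and no overlap between groups, the genes nearest each threshold and the members of the lists. Members outside that rule, EXO and those without a symbol among them, were named after their values were seen. The values of 1 member are not reported here, though it counts in all totals.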

Additional observations from a re-analysis of the deposited data

How the results depend on the processing

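Leaving out one library at a time gave 17 to 25 risers and 39 to 60 fallers, of which 10 to 16 and 35 to 48 were members. A minimum mean of 10 CPM gave 12 risers, a bri1-116 threshold of 1.0 gave 8 risers and 23 fallers, and a double mutant threshold of 0.2 gave 35 fallers. Thresholds were also widened after the data were seen, and 0.4 in the double mutant gave 28 risers and 73 fallers.

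In dwf4 against Col-0, leaving out a library gave 3 to 10 risers higher, 0 lower, 0 to 1 fallers higher and 23 to 40 lower. For BL in dwf4 the ranges were 0 to 2 risers higher, 3 to 6 lower, 11 to 19 fallers higher and 4 to 6 lower. DESeq2 gave 1 riser higher there, and a fit of all 18 libraries gave 4 fallers lower. For BL beside IAA the ranges were 1 to 2 risers higher, 4 to 6 lower, 2 to 4 fallers higher and 0 to 3 lower. No low-count filter gave 4 risers higher and 9 fallers lower there, and all 18 libraries gave 1 riser higher. For IAA beside BL the ranges were 3 risers higher, 8 to 9 lower, 11 to 19 fallers higher and 20 to 22 lower, and no low-count filter gave 5 risers higher. The cause was not tested. Leaving out a library leaves 1 in its group, which is then assumed to vary like the other groups.

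A replicate block gave 9 risers higher and 42 fallers lower in dwf4, 2, 3, 19 and 6 (risers higher and lower, fallers higher and lower) for BL in dwf4, 2, 7, 3 and 3 for BL beside IAA, and 4, 10, 16 and 22 for IAA beside BL. Over loci, the difference between the replicates of a group was correlated with that of the other group, taken in the same replicate order. These correlations were 0.0478, -0.222, -0.136 and -0.0446 in these 4 comparisons, so the replicate numbers do not establish pairs. A block with crossed numbers, added after the data were seen, gave 2, 4, 19 and 7 for BL in dwf4 and 2, 6, 4 and 3 for BL beside IAA. Of 321 settings for called genes named by the rule, 301 kept the call, 20 lost it and 0 reversed.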
